A study of Sus scrofa with 12 samples.

Results

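Among the C/EBP-β binding summits of pig endometrium, 419 regions were high-scoring in every day 12 library and in no day 15 library. They were chosen by the deposited summit scores: from each of the 6 lists the 6557 highest scores on the 18 autosomes, X and Y were kept, a number set by the length of the shortest list. Neighbouring summits 200 bp apart or less, from whichever library, formed 1 region. A region was retained where all 3 day 12 top lists and none of the day 15 top lists had a summit. The 419 were 2.40% of 17493 joined regions, against 142 (0.812%) with the opposite pattern. Of the 2705 regions in all 3 day 12 top lists the 419 were 15.5%. Of the 1738 regions in all 3 day 15 top lists the 142 were 8.17%. These counts follow from the selection and are a description. The name of a site seen only on day 12 does not hold for most of them: in the complete day 15 lists, 369 of the 419 (88.1%) had a summit of lower rank at the same place. They are therefore called day 12 top-list regions here.

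The study compared endometrial tissue, the lining of the uterus, of pregnant pigs (Sus scrofa) on day 12 and on day 15 of gestation. Each day had 3 libraries of chromatin immunoprecipitated with an antibody against C/EBP-β (Abcam) and 3 input samples, which were not analysed here. No genotype, breed, age or treatment is labelled, and the labels do not say whether replicates came from separate animals, so p-values measure only the spread between these libraries, which may be technical. Whole tissue was used, so a summit cannot be assigned to epithelium, stroma, vessels or leukocytes. The files hold no expression values against which the tissue could be checked by its markers, and more bound cells and more binding per cell cannot be told apart.

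C/EBP-β belongs to the bZIP transcription factors, binds DNA as a dimer with itself or with other family members, and acts downstream of cyclic AMP, cytokine and steroid signals. In the uterus it is known for its part in the response of epithelium and stroma to oestrogen and progesterone and in decidualization. The elongating pig conceptus signals its presence with oestrogen at about day 12 and then starts to attach to the uterine epithelium.

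The lists differed greatly in length and in the scores their top lists reached. The 6557 summits kept were the whole list of day 12 replicate 1, 19.7% of day 12 replicate 2 and 11.4% of replicate 3, and 9.35%, 39.7% and 54.8% of day 15 replicates 1 to 3. Scores are p-values or q-values on a −log10 scale, and the lowest score kept was 2.02, 13.15 and 24.24 on day 12 and 41.82, 8.40 and 6.06 on day 15. The same place in a list therefore stood for different statistical support in different libraries. The complete list of day 12 replicate 1 ended at a score of 2.02, and those of the other libraries ended at 1.31 to 1.37. Whether the lists were cut at different thresholds is not stated. The peak names form 2 sets, with a directory path (day 12 replicate 1 and day 15 replicates 2 and 3, set A) and without (the other 3, set B). Peak names give day 15 replicates 2 and 3 a common sample code, and whether they are separate samples cannot be told from the files. Their top lists share 32 identical positions (0.488%), within the range of 23 to 97 over all pairs of libraries. They were kept as 2 libraries, as the labels have them. Without day 12 replicate 1 the number of day 12 top-list regions was 1220, and without day 15 replicate 1 it was 1117, whereas leaving out day 15 replicate 2 or 3 gave 438 and 436. Within set A alone, a summit in day 12 replicate 1 and none in day 15 replicates 2 and 3 gave 2792 regions. Within set B alone, a summit in day 12 replicates 2 and 3 and none in day 15 replicate 1 gave 1320. Fewer libraries had to meet each condition, so these counts cannot be set beside the number under the full rule. No read counts are in the files, so depth is unknown and its part in these counts was not tested.

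Few of the regions ranked at the head of the day 12 lists. In day 12 replicate 1 their ranks ran from 260 to 6533 with a median of 3717, in replicate 2 from 204 to 6515 (median 2957) and in replicate 3 from 68 to 6539 (median 2888). As a share of the complete list these medians were 56.7%, 8.88% and 5.003%, since the lists held 6557, 33294 and 57728 summits. Regions with a summit in all 6 top lists, of which there were 1047, had median ranks of 821, 981 and 1159 in the same libraries. Only 17, 40 and 46 of the 419 were among the first 1000 summits of replicates 1, 2 and 3. The order of the regions was shared weakly between libraries: Spearman's rho across the 419 regions was 0.24 and 0.26 between replicate 1 and the others, and 0.41 between replicates 2 and 3, which share the style of their peak names. These are correlations across regions, which are not replicates. They use the ranks of the selection, cut at 6557, and so do not measure how well the whole lists agree. Within a region the summits of the 3 libraries had a median spread of 47 bp and a largest spread of 245 bp. No library had more than 1 summit in a region. The joining rule limits this spread, so it does not measure how well the libraries agree. Median region width was 48 bp for the 419, 56 bp for the 142 day 15 regions and 50 bp for the 1047 regions of all 6 top lists.

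In the complete lists, day 15 replicate 1 accounted for most of the lower-ranked day 15 summits. It had one at 363 of the 419 regions (86.6%, 95% exact binomial interval 83.0% to 89.7%), at ranks from 6565 to 67061 with a median of 12669, in the first 18.1% of its 70152 summits. Of these 363, 188 ranked within 13114, which is 2 times the number kept, and 32 ranked below 40000. Their median score was 23.86, against 7.32, 20.81 and 38.36 for the 419 regions in day 12 replicates 1 to 3. A lower rank in this longer list was therefore not always a lower score. Day 15 replicate 2 had a summit at 60 regions (14.3%, interval 11.1% to 18.04%) and replicate 3 at 26 (6.21%, interval 4.09% to 8.96%), with median scores of 5.08 and 3.98. Their lists held 16529 and 11960 summits and so had less room below the limit. By number of day 15 libraries, 301 regions had a lower-ranked summit in 1, 56 in 2 and 12 in 3. These values come from the same contrast as the selection and carry no test.

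**Figure D1:**
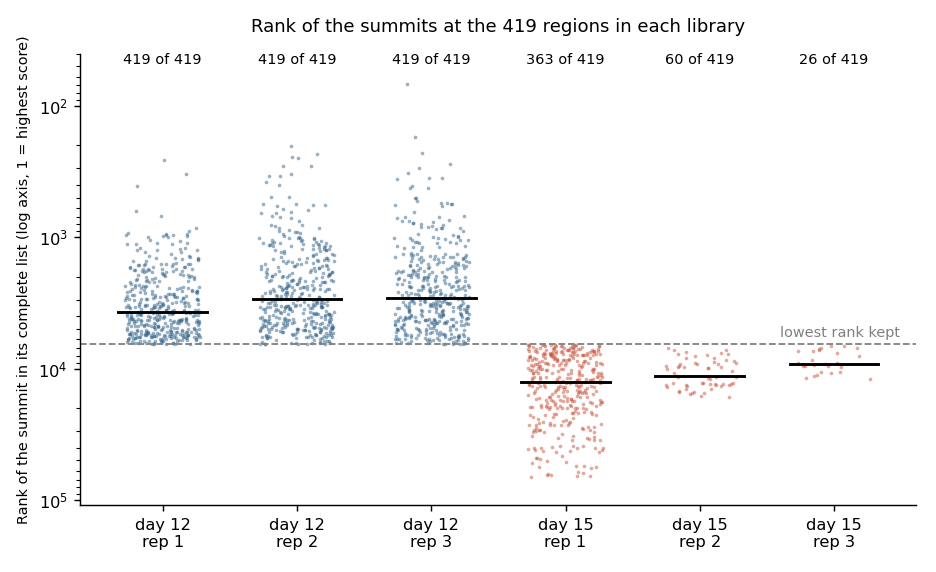
Rank of the summit at each of the 419 day 12 top-list regions in the complete list of each library (log axis, rank 1 is the highest score); each point is a region, black bars are medians, the dashed line is rank 6557, and the numbers above give regions with a summit. Blue points of day 12 lie above the line and red points of day 15 below it by construction; 363 regions have a point in day 15 replicate 1.

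A summit of low rank in day 15 replicate 1 was common among all regions that the day 15 top lists lacked. Regions found in 1 day 12 top list and no day 15 top list had one in 76.1% of 3142 cases, those in 2 day 12 top lists in 83.6% of 1196, and the day 12 top-list regions in 86.6%. Regions without a summit in any complete day 15 list made up 21.6%, 15.2% and 11.9% of these classes. For the 142 day 15 regions the complete lists of day 12 replicates 2 and 3 held a summit at 112 and 139, and 3 of the 142 had none in any day 12 library. The list of day 12 replicate 1 has no summits beyond its top list and could add none.

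The limit of 6557 divided a continuous series of ranks. The day 12 top-list region nearest to it lay near PLPP3 (chromosome 6, 155891922 to 155892082), with rank 6565 and a score of 41.70 in day 15 replicate 1. The nearest region on the other side, near ZNF691 (chromosome 6, 168571235 to 168571266), had rank 6552 and a score of 41.86. Within 500 ranks of the limit there were 26 retained and 34 rejected regions. On the day 12 side, the retained region of the lowest mean rank lay 10.2 kb from ADIPOR2, an adiponectin receptor gene, with ranks 6533, 6268 and 6175 in replicates 1 to 3. In all, 736 regions missed the selection by a summit in a single day 15 top list, 700 of them that of replicate 1. A further 1196 missed it by lacking a summit in a single day 12 top list, 800 of them that of replicate 1.

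The best-ranked day 12 top-list region lay in intergenic sequence 14.3 kb from RNGTT, the gene of the messenger RNA capping enzyme (chromosome 1, 57076306 to 57076329). Its ranks were 260, 555 and 68 in day 12 replicates 1 to 3, with scores of 33.5, 42.6 and 129.4. In day 15 replicate 1 it ranked 13352 with a score of 22.7, and day 15 replicates 2 and 3 had no summit. All 3 day 12 libraries thus held it well inside their top lists, and the day 15 library that had it held it at over 2 times the rank kept. The second lay 3.7 kb from LOC100152327 (chromosome 14, 48796512 to 48796517), with day 12 ranks 1251, 285 and 173 and rank 15565 in day 15 replicate 1. The third lay 121.8 kb from TLE3, which encodes a Groucho-family corepressor (chromosome 1, 167977718 to 167977728), with day 12 ranks 1133, 247 and 362 and rank 29808 in day 15 replicate 1.

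The region ranked 4 lay inside ITGB3, the gene of the integrin β3 chain, which pairs with αv in receptors for osteopontin and other ligands with an RGD motif at the uterine surface. It was at chromosome 12, 16714183 to 16714236, 19.7 kb from the nearer end of the gene. Ranks were 856, 204 and 751 in day 12 replicates 1 to 3, with scores of 18.1, 58.8 and 67.5. Day 15 replicate 1 had a summit of rank 7813 and score 36.5, not far past the limit, and day 15 replicates 2 and 3 had none. All 3 day 15 top lists held a summit elsewhere within 50 kb of ITGB3 or inside it, so the gene as a whole was not without day 15 summits.

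Of the 8 regions that followed in rank, 3 more were close to or inside genes. AAK1, which encodes a kinase of clathrin adaptors, held a region 18.8 kb from its end (chromosome 3, 72941457 to 72941504) with day 12 ranks 1101, 605 and 786 and rank 7000 in day 15 replicate 1. TEAD1, the gene of a transcription factor of the Hippo pathway, held one 507 bp from an end (chromosome 2, 46396971 to 46397023). Its day 12 ranks were 975, 1023 and 507 (scores 16.8, 34.0 and 76.3), and day 15 replicate 1, whose list is longer than any of day 12, had a summit of rank 64460 and score 2.8. It was 1 of the 32 regions ranked below 40000 there. NEFH, a neurofilament gene, held one 253 bp from an end (chromosome 14, 46568427 to 46568439) with day 12 ranks 1130, 998 and 982, rank 9517 in day 15 replicate 1 and rank 13356 in replicate 2. The other 5 were intergenic. They lay 621.4 kb from FSTL5, 20.6 kb from AMD1 (S-adenosylmethionine decarboxylase, an enzyme of polyamine synthesis), 30.5 kb from KCNJ15, 14.5 kb from TARDBP and 21.3 kb from FBXL2. The last, at chromosome 13, 19106790 to 19106832, had no summit in any complete day 15 list. All 12 of the best-ranked regions held when summits were joined within 100 or 500 bp. They also held with the 3000 or 5000 highest scores of each list, which follows from their choice by rank and is no check.

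A day 15 summit of any rank was missing at 50 of the 419 regions (11.9%). These 50 were the only ones that also separated the days in the complete lists, where 138 regions did so. After the FBXL2 region, the best-ranked was inside ATG4C, the gene of an autophagy protease (chromosome 6, 149597832 to 149597895, 37.5 kb from the nearer end), with day 12 ranks 1743, 853 and 750. A region 159.1 kb from LOC110255564 had day 12 ranks 2761, 569 and 323 (chromosome 9, 89937939 to 89938004). One lay 53.2 kb from ANXA4, an annexin gene (chromosome 3, 72707764 to 72707804), with ranks 1864, 1609 and 406. Another lay 54.1 kb from LY96, which encodes MD-2, the partner of the endotoxin receptor TLR4 (chromosome 4, 61865698 to 61865770), with ranks 1483, 1239 and 1461. The sixth lay 6.8 kb outside LPAR3, the lysophosphatidic acid receptor gene known for its role in embryo spacing and implantation (chromosome 6, 128944540 to 128944611). Its ranks were 1788, 1112 and 1340 in day 12 replicates 1 to 3, with scores of 11.8, 32.8 and 54.3, in lists of unequal length. Elsewhere within 50 kb of LPAR3 or inside it, 1 day 15 top list had a summit. Near a gene end (2 kb or less) lay 9 of the 50, a share with a 95% exact binomial interval from 8.58% to 31.4%, and 16 were inside genes and 25 in intergenic sequence. Of the other 369 regions, 36 (9.76%, interval 6.93% to 13.3%) were near a gene end. The intervals overlapped, but regions are not replicates, so this does not show whether the shares differ.

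Few of the day 12 top-list regions lay at gene ends. The annotation gives gene starts and ends without strand, so either end was counted. Within 2 kb of an end of a protein-coding gene lay 45 regions (10.7%, exact binomial interval at the 95% level 7.94% to 14.1%), inside a gene 204 (48.7%, 43.8% to 53.6%) and in intergenic sequence 170 (40.6%, 35.8% to 45.5%). The shares near gene ends and inside genes were 32.7% and 34.9% among all 17493 joined regions, and 29.5% and 35.2% among the 1047 regions of all 6 top lists. The 142 day 15 regions had 19.7% near gene ends (interval 13.5% to 27.2%). The median distance to a gene end was 20.6 kb for the day 12 top-list regions, 33.1 kb for the day 15 regions, 11.8 kb for the regions of all 6 lists and 10.8 kb for all joined regions. Intervals cover counting error only, and regions are not replicates of a day.

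**Figure D2:**
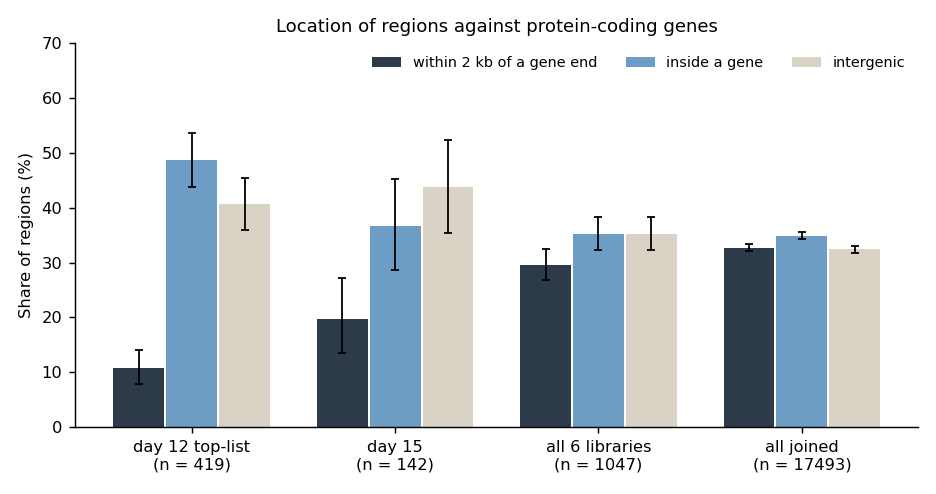
Share of regions within 2 kb of a protein-coding gene end, inside a gene and in intergenic sequence for the 419 day 12 top-list regions, the 142 day 15 regions, the 1047 regions of all 6 top lists and all 17493 joined regions; error bars are 95% exact binomial intervals. Near gene ends lay 10.7% of the day 12 top-list regions and 32.7% of all joined regions.

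The low share at gene ends also held for regions outside the selection. Regions in all 3 day 12 top lists and that of day 15 replicate 1 only had 11.7% of 700 near gene ends (interval 9.43% to 14.3%). Those in day 12 replicates 2 and 3 only had 8.75% of 800. Regions in day 12 replicate 1 and day 15 replicates 2 and 3 only, the libraries of set A, had 84.9% of 753, and those in day 15 replicates 2 and 3 only had 73.0% of 1179. Among regions of all 3 day 12 lists, the share near gene ends was 10.7%, 11.8%, 20.5% and 29.5% with 0, 1, 2 and 3 day 15 libraries. By rank, 12 of the first 139, 13 of the next 139 and 20 of the last 141 day 12 top-list regions lay near a gene end.

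Per library, the share of top-list summits within 2 kb of a gene end was 34.2%, 15.5% and 15.5% in day 12 replicates 1 to 3 and 17.9%, 51.6% and 51.2% in day 15 replicates 1 to 3. The days overlapped, since day 12 replicate 1 lay above day 15 replicate 1. Day 12 had a mean of 21.8% ± 10.8 (SD, n = 3). Day 15 had a mean of 40.2% ± 19.4 (SD, n = 3). The difference of 18.5 points did not exceed the spread between libraries, with a two-sided exact permutation p = 0.2, which is also 0.2 after adjustment by Benjamini and Hochberg for the 4 measures of location. The smallest p possible with 3 against 3 is 0.1. Within set A the difference was 17.2 points and within set B 2.34 points. Set A has only 1 day 12 library and set B only 1 day 15 library, so neither difference has a test alone. Their mean was 9.75 points (exact permutation within sets, p = 0.111, the smallest possible). For the shares inside genes and in intergenic sequence the day 15 minus day 12 differences were -9.62 and -8.84 points, with the same exact permutation p = 0.2. With 1 library left out the difference near gene ends ran from 12.8 points without day 15 replicate 2 (exact permutation p = 0.5) to 29.6 points without day 15 replicate 1 (exact permutation p = 0.2). With the mean of day 15 replicates 2 and 3 counted as 1 library, an alternative chosen after seeing the data, it was 12.9 points (exact permutation p = 0.5).

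**Figure D3:**
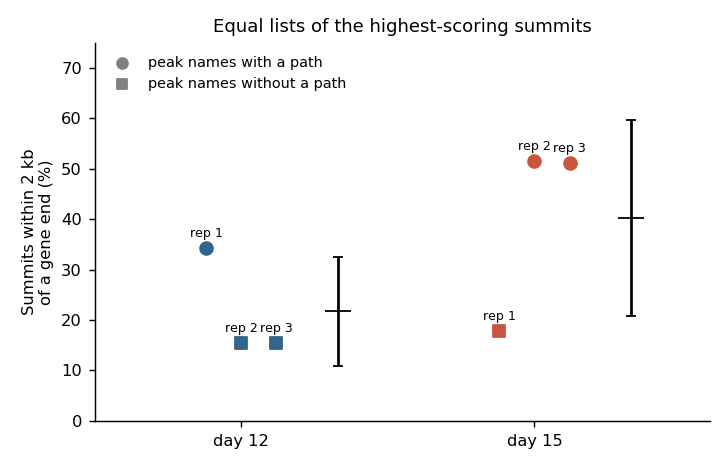
Share of the 6557 highest-scoring summits of each library within 2 kb of a protein-coding gene end, by day; circles are libraries whose peak names carry a path and squares those without, and the bars are the mean ± SD of 3 libraries. The 3 squares sit between 15.5% and 17.9% and the 3 circles between 34.2% and 51.6%, on both days.

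Among the 45 regions near a gene end, the best-ranked after TEAD1 and NEFH lay 1.7 kb from CTSV, a lysosomal cathepsin gene (chromosome 10, 25200594 to 25200660). It matched the listed name CTSL1 as a synonym; cathepsin L is a secreted product of pig uterine glands. Its ranks were 1998, 1150 and 714 in day 12 replicates 1 to 3, and day 15 replicate 1 had rank 7081. The region 1.2 kb from SIK2, a salt-inducible kinase gene that acts in cyclic AMP signalling, was at chromosome 9, 39367334 to 39367358. It had ranks 629, 231 and 4134 on day 12, with scores of 21.4, 56.8 and 32.0, and rank 12424 in day 15 replicate 1. CCDC88B had a region 1.8 kb from an end (chromosome 2, 7786404 to 7786419, day 12 ranks 942, 2686 and 354), and day 15 replicate 2 alone had a summit there, of rank 9267. OTOG had one 1.4 kb from an end, with day 12 ranks 2354, 718 and 1036 and rank 17594 in day 15 replicate 1.

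NFIL3, whose product is a bZIP repressor that binds sites related to those of C/EBP factors, held a region 1.1 kb from an end (chromosome 14, 2602673 to 2602689). Its ranks were 897, 1452 and 3048 on day 12, and no complete day 15 list had a summit there, while all 3 day 15 top lists had one elsewhere within 50 kb of the gene. TPD52L2 and NME6, a nucleoside diphosphate kinase family gene, were the other 2 of the 15 with no day 15 summit of any rank. The TPD52L2 region (chromosome 17, 62732922 to 62733075, 557 bp from an end) had day 12 ranks 1692, 3272 and 1593. The NME6 region (chromosome 13, 31053345 to 31053405, 90 bp from an end) had ranks 2763, 2262 and 3591. The remaining 6 of the 15 lay near WIPI1 (an autophagy protein gene), LOC102159509, CD320 (the transcobalamin receptor gene), KRT20 (an epithelial keratin gene), MRS2 (a mitochondrial magnesium channel gene) and NICN1. Each had a lower-ranked day 15 replicate 1 summit, at rank 8340 for MRS2 and at ranks from 10032 to 26895 for the others.

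**Figure D4:**
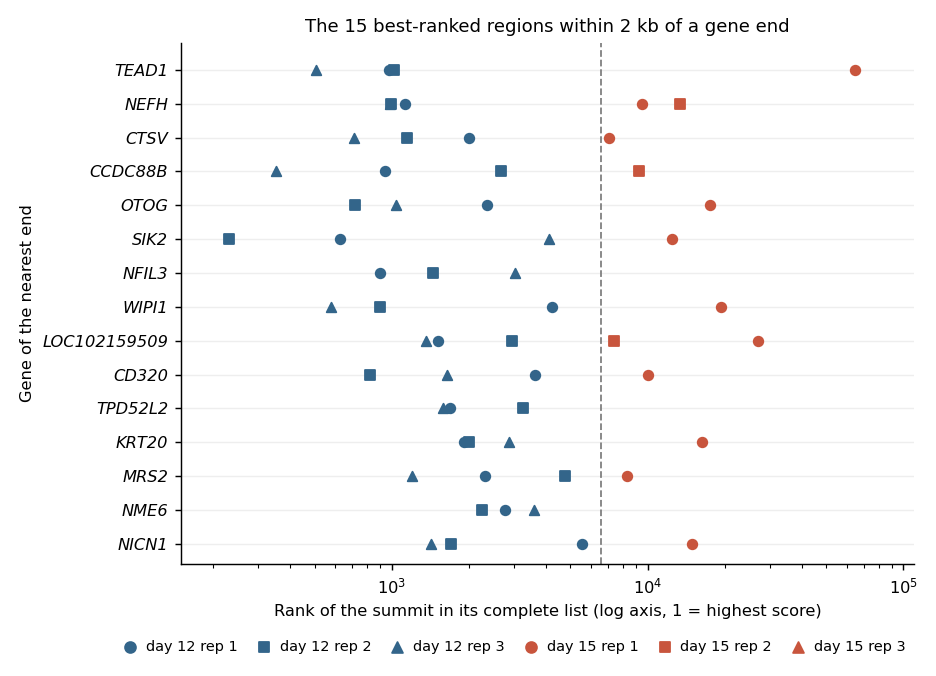
Rank in the complete list of each library (log axis, rank 1 is the highest score) for the 15 best-ranked day 12 top-list regions within 2 kb of a gene end, labelled by the gene of that end; blue symbols are day 12 libraries, red symbols day 15 libraries, and the dashed line is rank 6557. No red symbol means no day 15 summit of any rank, as for NFIL3, TPD52L2 and NME6; the TEAD1 region has its day 15 symbol at rank 64460.

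Lower in the order, and picked here after their values were seen, were 3 further genes with a region at an end. SULT1E1, the oestrogen sulfotransferase gene, had one 144 bp from an end (chromosome 8, 66838309 to 66838342). Day 12 ranks were 2909, 2110 and 4372, and day 15 replicate 1 had rank 56145 with a score of 4.1. CSF3, which encodes the granulocyte colony-stimulating factor, had one 107 bp from an end (chromosome 12, 22336056 to 22336057) with day 12 ranks 3599, 4272 and 3831 and no day 15 summit of any rank. DDR2, a collagen receptor gene, had one 520 bp from an end, and there all 3 complete day 15 lists had a summit.

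Protein-coding genes with a day 12 top-list region inside them or within 50 kb numbered 725 of 19550 (3.71%). A day 15 top-list summit lay elsewhere in the same window at 580 of the 725 (80.0%), and in 3 of 3 day 15 libraries at 236, against 65.9% of all protein-coding genes with a day 15 top-list summit in that window. The remaining 145 genes had none. Only 11 genes had both a day 12 top-list region and a day 15 region in the window. Of 289 genes in 17 lists on signalling, implantation and cell types, 18 had a day 12 top-list region (6.23%, background 3.71%), 4 a day 15 region (1.38%, background 1.10%) and 245 any joined region (84.8%, background 72.7%). These shares were not tested. Of the 18 list genes, only AKR1B1 and ESRP1 had no day 15 top-list summit in the window. Long genes have wider windows, and genes of 1 neighbourhood share regions.

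Genes of lipid mediators of implantation had 3 of 22 members with a region, and besides LPAR3 these were AKR1B1 and PLA2G4A. AKR1B1 encodes an aldose reductase with prostaglandin F synthase activity. Its gene model of 159 kb held 2 of the 3 joined regions there as day 12 top-list regions, and a further one lay within 50 kb. The better-ranked was at chromosome 18, 14705861 to 14705873, with ranks 3770, 1259 and 355 in day 12 replicates 1 to 3, no day 15 summit of any rank, and no day 15 top-list summit anywhere in the gene's window. The other was at chromosome 18, 14725017 to 14725069, with day 12 ranks 4794, 3089 and 6423 and rank 55529 in day 15 replicate 1. PLA2G4A, the gene of the cytosolic phospholipase that releases arachidonic acid, held a region 148.1 kb from its nearer end (chromosome 9, 128001631 to 128001667). Its day 12 ranks were 2930, 4544 and 5024, day 15 replicate 1 followed at rank 7315, and all 3 day 15 top lists had other summits in the window.

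Genes of conceptus attachment had 3 of 22 members with a region. Besides ITGB3 these were EGF and MUC1, each with a region more than 40 kb away that lay nearer to another gene. That of EGF, the epidermal growth factor gene, was 43.6 kb off and inside LRIT3. Its ranks were 3793, 1622 and 1626 on day 12 and 7152 in day 15 replicate 1. That of MUC1, the cell-surface mucin gene, was 43.0 kb off and 752 bp from EFNA1, an ephrin gene, with day 12 ranks 3921, 2206 and 5215. The complete lists of day 15 replicates 2 and 3 had summits of rank 9620 and 11384 there, and that of replicate 1 had none. Among 20 matched genes of uterine secretion and transport, CTSV and SLC7A1 had a region. That of SLC7A1, a cationic amino acid transporter gene, was 20.2 kb away and inside MTUS2. Its day 12 ranks were 2570, 4840 and 4315, and day 15 replicate 1 had rank 14759.

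The AP-1 family and other immediate early genes numbered 19, and 3 of them had a region, with mean day 12 ranks of 3800, 4953 and 5389. KLF6 held one 384 bp from an end (chromosome 10, 66497399 to 66497493) with day 12 ranks 4469, 2957 and 3975, and 2 complete day 15 lists had a summit there. NR4A3, an orphan nuclear receptor gene, had one 2.4 kb outside (day 12 ranks 5772, 5727 and 3359, day 15 replicate 1 rank 8158). ATF3, a stress-induced bZIP gene, held one 27.2 kb from its end (day 12 ranks 6200, 3947 and 6020, day 15 replicate 1 rank 16628). All 3 genes had day 15 top-list summits elsewhere in the window, in 3, 2 and 3 libraries.

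Cytokine and hormone signalling genes had single members with a region. SOCS3, the feedback inhibitor of STAT3 signalling, had one 8.3 kb outside, nearer to PGS1 at 6.5 kb (chromosome 12, 3635467 to 3635540), among 24 genes of the IL6, JAK and STAT3 list. Its day 12 ranks were 1597, 3418 and 2145, and day 15 replicate 1 had rank 9265. IL1RL1, the receptor gene of interleukin 33, had one 3.6 kb outside (chromosome 3, 51906015 to 51906086) among 19 genes of the interleukin 1 and NF-κB list. Day 12 ranks were 3857, 814 and 1481, and the complete lists of day 15 replicates 1 and 2 had summits of rank 13371 and 9158. NCOA2, a coactivator of steroid receptors, held one 125.9 kb from its end among 16 genes of its list, with day 12 ranks 980, 1141 and 2751 and, past the limit on day 15, rank 6671 in replicate 1 and 8039 in replicate 3. IFNAR1, an interferon receptor gene, had one 44.3 kb away, inside IL10RB, a receptor gene of the interleukin 10 family, among 21 interferon response genes. Its day 12 ranks were 5840, 2792 and 5700, and day 15 replicate 1 had rank 10776. NFIL3 was the single gene among 16 of the PAR bZIP and clock list.

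Lists with no region within 50 kb of a member were those of the C/EBP family (0 of 7), progesterone-responsive and decidual regulators (0 of 22), insulin, lipid and adipocyte genes (0 of 20), and the stromal (0 of 13), endothelial (0 of 11) and leukocyte markers (0 of 16). With lists this short and a background of 3.71%, a count of 0 says little. The epithelial markers had 2 of 14: MUC1 and ESRP1, an epithelial splicing regulator gene with a region 34.4 kb away (chromosome 4, 42096078 to 42096134). The ESRP1 region ranked 1288, 493 and 2019 on day 12 and 7777 in day 15 replicate 1, and no day 15 top list had a summit in the gene's window. Of 8 smooth muscle markers MYH11 had a region, 28.2 kb away and 2.7 kb from FOPNL. Its ranks were 3126, 2334 and 5087 on day 12 and 29454 in day 15 replicate 1.

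Far from genes, 42 of the 419 regions (10.0%, interval 7.32% to 13.3%) lay over 100 kb from any protein-coding gene, against 8.63% of all joined regions. After those nearest to TLE3, FSTL5 and LOC110255564, the best-ranked were 133.1 kb from LRRTM4 and 122.2 kb from CEBPB. The region whose nearest protein-coding gene is CEBPB, which encodes C/EBP-β itself, was at chromosome 17, 51845876 to 51845887. It had ranks 934, 2449 and 1108 and scores of 17.2, 22.9 and 58.7 in day 12 replicates 1 to 3. Day 15 replicate 1 had rank 8034 and a score of 35.7 there, and day 15 replicates 2 and 3 had no summit. At that distance it counts for no gene in the 50 kb window, and no link to CEBPB was measured.

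Within 100 kb of another day 12 top-list region lay 34 (8.11%), in 16 groups: 14 of 2 and 2 of 3 regions. The same share was not taken for other sets of regions, so it has no background. The groups of 3 were at PRKCH, a protein kinase C gene (chromosome 1, 190418285 to 190514851), and in PPM1H, a protein phosphatase gene (chromosome 5, 27303329 to 27434770). The 3 PRKCH regions had mean day 12 ranks of 1089, 4671 and 4027, and all 3 had a lower-ranked summit in day 15 replicate 1, at ranks 13669, 34946 and 34795. The 3 PPM1H regions had mean day 12 ranks of 5245, 4478 and 3471 and ranks of 7428, 11151 and 8938 in day 15 replicate 1. The next groups by mean rank were at PDIA6 and ATP6V1C2, at CCDC88B and at UEVLD and SPTY2D1, each with 2 regions. Both regions at UEVLD and SPTY2D1, on chromosome 2, had no day 15 summit of any rank. 7 genes held more than 1 region in their body: PPM1H with 3 of its 8 joined regions, AKR1B1 with 2 of 3, LRRC28 with 2 of 2, PRKCH with 2 of 8, SNTB1 with 2 of 6, VWA8 with 2 of 7 and RAD51B with 2 of 20.

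Distances to neighbouring summits and regions were taken for the day 12 top-list regions only, so the shares below have no background. The median distance from a day 12 top-list region to the nearest day 15 top-list summit was 38.8 kb. One lay within 1 kb at 17 regions (4.06%), within 5 kb at 62 (14.8%) and within 50 kb at 237 (56.6%). The nearest region of all 6 top lists was a median of 523.2 kb away, and 45 regions (10.7%) had one within 50 kb.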

How the data were processed

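Binding of C/EBP-β was measured by ChIP-seq in 6 libraries, 3 of day 12 and 3 of day 15. The submitters' processing notes name MACS2 2.1.2, SAMtools 1.9, Bowtie2 2.3.5.1 and, as build, susScr11. How peaks were thresholded, whether input served as control, and how duplicates were treated is not given in the sources used here. Each sample has its own list. The deposited files hold summits 1 bp wide with a score on a −log10 scale, of either p-values or q-values. Which of them is not stated. Scores grow with depth, which is unknown, so they served only to rank summits within a list.

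Summits were ranked and joined in Python 3.11.15. Coordinates count from 1. Gene positions were those of RefSeq on Sscrofa11.1, the same assembly as susScr11, with 19550 protein-coding genes on the chromosomes and no strand, exons or sequence. Of 298 list entries 289 genes matched by symbol or synonym. Location was taken at the centre of a region. Libraries were compared by exact permutation of the days with scipy 1.17.1, and the joining was tested on simulated data. Named were the 12 best-ranked regions by mean day 12 rank, the 15 best-ranked within 2 kb of a gene end, list genes, the 6 best-ranked without a day 15 summit or over 100 kb from genes, the 5 largest groups, genes with more than 1 region and regions at the limits. Of these, 1 region far from genes is not reported here. The regions, lists and tests were chosen with earlier results of these data known. The planned motif measures need a genome sequence and were not run. Alternatives were other joining distances, list lengths, gene distances and gene windows, each library left out, the 2 sets of peak names, pairing by replicate number and, added after seeing the data, day 15 replicates 2 and 3 as 1 library.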

Additional observations from a re-analysis of the deposited data

How the results depend on the processing

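The number of day 12 top-list regions was 403 and 425 with joining within 100 and 500 bp, and 306 with the 5000 highest scores. It was 163 with the 3000 highest scores, 138 with all summits, 2792 within set A and 1320 within set B. With 1 library left out it ran from 436 to 1220. Of the 419 regions, 401 held at 100 bp, 413 at 500 bp, 228 with 5000 scores, 67 with 3000 and 50 with all summits. The share near gene ends was 15.2% with all summits, 20.6% within set A, 5.73% for ends within 1 kb and 23.6% for ends within 5 kb. It stayed within the interval of the main share with each library left out (9.43% to 11.5%). Each of those sets kept at least 416 of the 419 regions, so this follows in part from the overlap and is no check. The genes of the lists with a region were 10 with a window of 5 kb (background 1.47%) and 25 with 100 kb (background 6.21%). The cause of these shifts was not tested. Fewer summits or libraries entered with shorter lists, single sets or a library left out, and more summits entered with all summits. Gene distances and windows changed neither. A replicate block by number gave the same difference of 18.5 points near gene ends (paired exact sign-flip p = 0.5, where 3 pairs cannot go below 0.25). Over 1047 regions, same-numbered libraries deviated with correlations of -0.54, -0.07 and -0.44. Every same-numbered pair joins a library of set A with one of set B, so these values cannot tell whether the numbers pair the libraries. No location difference between days changed direction under any alternative run. Unknown depth limits every statement of absence.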

Other observations

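Long non-coding RNA genes, 5425 on the chromosomes, held 36 of the 419 regions (8.59%) in their bodies, against 8.64% of all joined regions, and 29 of the 36 lay in no protein-coding gene. Within 2 kb of an end of such a gene lay 15 regions (3.58%), against 5.54% of all joined regions. The regions nearest to RNGTT and to CEBPB among the protein-coding genes both lay inside a long non-coding RNA gene, LOC110260329 and LOC110257431.

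By chromosome, the regions made up from 1.14% (chromosome 17, 6 regions) to 3.63% (chromosome 16, 16 regions) of the joined regions of an autosome. Chromosome X had 1 of 314 joined regions (0.318%) and chromosome Y 0 of 13. No test was run on these shares.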
